A study of Homo sapiens with 7 samples.

Results

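The report describes 57 direct targets of p53 that lie outside the arrest, feedback, death-receptor, BCL2, sestrin and repair groups, from ZMAT3 and TP53INP1 to EDA2R. The members were chosen by gene symbol from published target lists, and each of the 57 symbols matched 1 of the 19699 genes in the count table. They lie on 20 chromosomes. Of the 57 members, 54 reached at least 1 CPM (counts scaled to library size, with TMM factors) in at least 1 library, as did 12661 genes in all. SPATA18, EDA2R and TRIM22 stayed below 1 CPM in every library.

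HCT116 p53-/- cells, human colon carcinoma cells whose p53 gene has been disrupted, gave all 7 libraries, with 1 library per group. The groups were cells infected with p53-M133T and given arsenic trioxide (ATO), the same cells without ATO, cells infected with wild-type p53 without ATO, cells infected with p53-R273H with and without ATO, and vector cells, called vehicle in the labels, with and without ATO. ATO was given at 1 µg/ml for 24 h, and no wild-type p53 library with ATO was analysed here. M133T and R273H each exchange 1 amino acid within the domain of p53 that contacts DNA, and the p53 in all infected cells is an introduced copy, whose promoter is not given in the labels.

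p53 is a transcription factor that binds DNA as a tetramer, at a response element made of a pair of half-sites, and activates genes near that element after DNA damage and other stresses. Many cancer-derived substitutions in its DNA-binding domain weaken this binding, some by unfolding the domain and others by removing a DNA contact. The targets described here act in RNA processing, energy metabolism, mitochondrial function, autophagy, cell death, growth factor signalling and lipid handling. With 1 library per group, a difference between a pair of libraries has no replicate check, so it is given as a ratio of scaled CPM with a 95% Clopper-Pearson interval that covers counting error only. Counts of members past 2-fold or 1.5-fold, and medians, use log2 of CPM with a pseudocount of 1, which shrinks the differences of scarce genes, so that a scarce member can pass a fold by its plain ratio and not be counted.

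Total counts were between 25062996 in the wild-type p53 library and 39297534 in the p53-M133T library, so a count of 3 stood for between 0.0761 and 0.116 CPM. The wild-type library carries another numeric prefix in its label than the other 6 and stood apart from them. The interferon and hypoxia lists were chosen because earlier results placed these genes high in the wild-type library, so their sums describe it and test nothing. The 20 interferon-stimulated genes listed, of which 17 reached 1 CPM, summed to 1850 CPM there, against 221 to 268 CPM in the other libraries, and the 15 hypoxia genes to 7070 CPM, against 2090 to 2800 CPM. The 9 leukocyte markers, of which 4 reached 1 CPM, summed to 68.9 CPM in it, against 4.94 to 9.14 CPM, and the 7 colon epithelial markers, of which 6 reached 1 CPM, summed to between 2710 and 4480 CPM over all libraries. The part of any of these in the ratios to wild-type p53 cells was not tested, and a batch cannot be told apart from the p53 form in this library.

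The upstream sequences of the members were searched for the p53 consensus element, since genes that p53 binds directly often carry it near the start site. RefSeq windows on GRCh38.p14, from 250 bases before to 50 bases after a start site, were found for 50 of the 57 members, 80 windows in all. Both strands of the element are covered because the consensus reads the same on each, and up to 13 bases between the half-sites of 10 bases were allowed. The C and G that frame the centre of each half-site had to be present, so mismatches could lie only at the other bases. A match with at most 3 mismatches of 20 bases was present in 21 of the 80 member windows (26.2%) and in 12.8% of all 35116 windows. A match with at most 2 mismatches was present in 5 of the member windows (6.25%) and in 2.93% of all windows. The windows below are those of AEN, which had 2 mismatches, and of 8 members whose ATO response was higher in p53-M133T cells than in the other lines (tests below). Of the 18 members called higher there that had a window, 8 had a match, as did 10 of the 32 other members with a window. DCP1B, EPS8L2 and SYTL1, which like AEN were not called, also had 2 mismatches and are not shown. Whether a match goes with the ATO response was not tested. The capitals mark the half-sites, and each line runs 5′ to 3′ on the strand of the gene.
AEN (chr15:88621296-88621335, plus strand): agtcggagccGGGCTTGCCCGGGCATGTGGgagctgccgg
FDXR (chr17:74872986-74873035, minus strand): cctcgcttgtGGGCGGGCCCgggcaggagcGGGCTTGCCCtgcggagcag
ZMAT3 (chr3:179071857-179071902, minus strand): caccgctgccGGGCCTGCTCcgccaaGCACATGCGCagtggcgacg
RPS27L (chr15:63157517-63157556, minus strand): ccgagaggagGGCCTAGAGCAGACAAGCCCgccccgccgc
SERPINB5 (chr18:63476823-63476867, plus strand): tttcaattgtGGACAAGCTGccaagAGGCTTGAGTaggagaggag
ABCA12 (chr2:215138675-215138718, minus strand): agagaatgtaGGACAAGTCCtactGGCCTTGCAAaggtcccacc
PLK2 (chr5:58460186-58460228, minus strand): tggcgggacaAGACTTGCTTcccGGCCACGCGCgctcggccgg
TGFA (chr2:70553853-70553892, minus strand): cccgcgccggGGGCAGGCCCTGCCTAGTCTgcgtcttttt
TRIM32 (chr9:116687217-116687256, plus strand): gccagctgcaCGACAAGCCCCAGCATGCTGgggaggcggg
FDXR, like AEN, had 2 mismatches and the others shown had 3. ABCA12 had a further match of 3 mismatches in the window of another start site. A match is a resemblance of letters and not a measured binding site, and elements in introns or farther upstream lie outside these windows.

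The comparison of p53-M133T cells with ATO and wild-type p53 cells asked, gene by gene, how near the treated mutant came to the wild type. The members were centred on equal levels but spread to both sides. The median log2 ratio of the 54 members was -0.014, beside 0.026 for all 12661 genes, and 25 of the 54 lay above 0. At least 2-fold higher were 2 members, beside 2.72% of all genes, and at least 2-fold lower were 3 members, beside 5.24%. Within 1.5-fold lay 39 of the 54 members (72.2%) and 76.0% of all genes, with 6 members at least 1.5-fold higher (10.8% of all genes) and 9 at least 1.5-fold lower (13.2% of all genes). These shares are near the background, so nearness to the wild-type level was no more common among the members than among all genes. The counting interval lay above 1 for 19 members (39.8% of all genes), below 1 for 22 (35.1%) and included 1 for 13. These intervals leave out how much cultures of 1 group vary, for which there are no data.

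**Figure D1:**
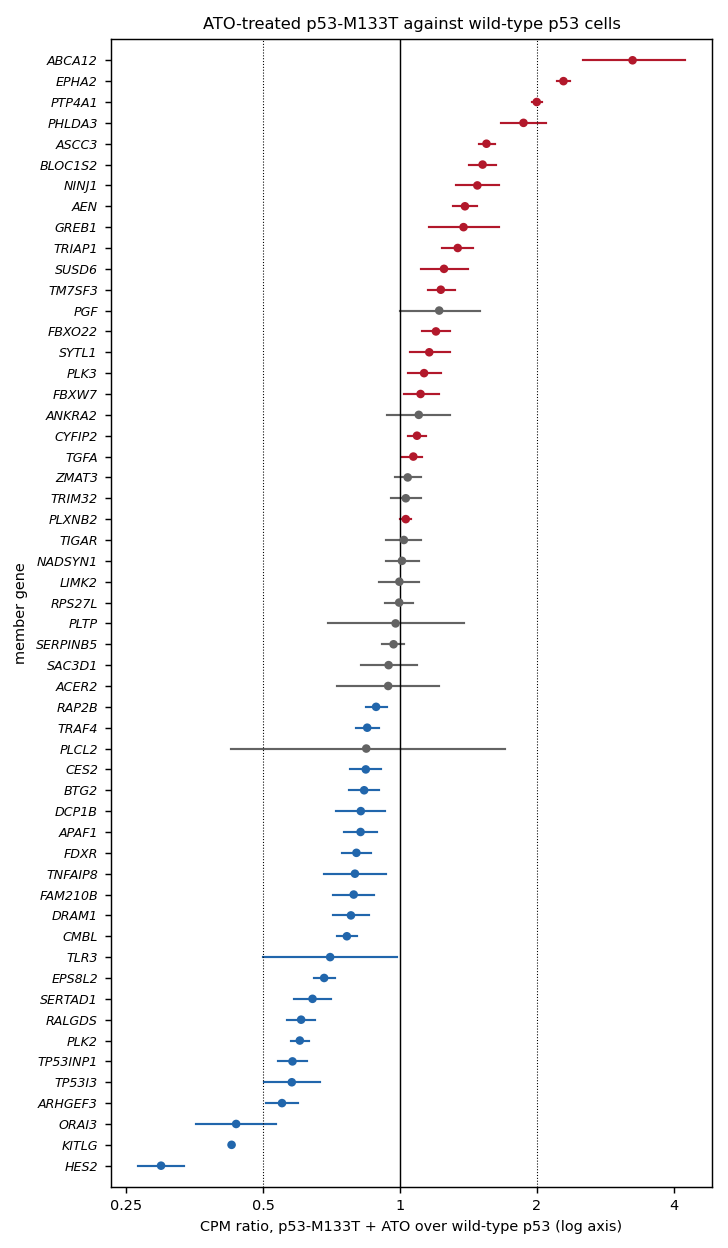
Ratio of TMM-scaled CPM of p53-M133T cells with ATO over wild-type p53 cells (log axis) for the 54 members with at least 1 CPM in a library; points are ratios of 1 library over 1 library, lines are 95% counting intervals, colours show intervals above 1 (red), below 1 (blue) or including 1 (grey), and dotted lines mark 2-fold. ABCA12 (3.25) is at the top and HES2 (0.298) at the bottom, with ZMAT3, TIGAR, RPS27L and SERPINB5 close to 1.

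A first set of members stood at the same level, within counting error, in p53-M133T cells with ATO and in wild-type p53 cells, and above the other 5 libraries. ZMAT3, an RNA-binding zinc finger protein that acts on splicing and transcript stability (ENSG00000172667, hg38 chromosome 3, 179017223 to 179072279, minus strand), stood at 58.2 CPM in p53-M133T cells with ATO, 20.3 in p53-M133T cells, 56.0 in wild-type p53 cells, 29.3 in p53-R273H cells with ATO, 25.7 in p53-R273H cells, 34.7 in vector cells with ATO and 25.4 in vector cells. Its ratio to wild-type p53 cells was 1.04 (0.973 to 1.11). RPS27L, a ribosomal protein paralogue that modulates MDM2 (ENSG00000185088, chromosome 15, 63125872 to 63158021, minus strand), stood in the same order of libraries at 48.6, 26.4, 48.8, 18.5, 15.8, 29.3 and 31.2 CPM, with a ratio to wild type of 0.996 (0.927 to 1.07). These are the highest libraries for both genes, and the p53-R273H libraries are the lowest for RPS27L.

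SERPINB5, which encodes the serpin maspin (ENSG00000206075, chromosome 18, 63476761 to 63505085, plus strand), stood at 79.7 CPM in p53-M133T cells with ATO, 36.0 in p53-M133T cells, 82.3 in wild-type p53 cells, 41.7 and 34.3 in p53-R273H cells with and without ATO, and 40.9 and 31.9 in vector cells with and without ATO. Its ratio to wild type was 0.968 (0.915 to 1.02). TIGAR, a bisphosphatase that lowers glycolytic flux (ENSG00000078237, chromosome 12, 4307763 to 4354593, plus strand), stood at 34.3, 17.8, 33.8, 22.4, 17.3, 21.9 and 20.3 CPM in the same order, a ratio of 1.02 (0.932 to 1.11). For both genes no other library reached the level of the pair compared. ACER2, a ceramidase of the Golgi apparatus (ENSG00000177076, chromosome 9, 19409059 to 19452020, plus strand), was scarce, at 3.83, 1.45, 4.06, 2.17, 2.99, 2.06 and 2.18 CPM, and its ratio of 0.942 had the wide interval of 0.728 to 1.22.

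**Figure D2:**
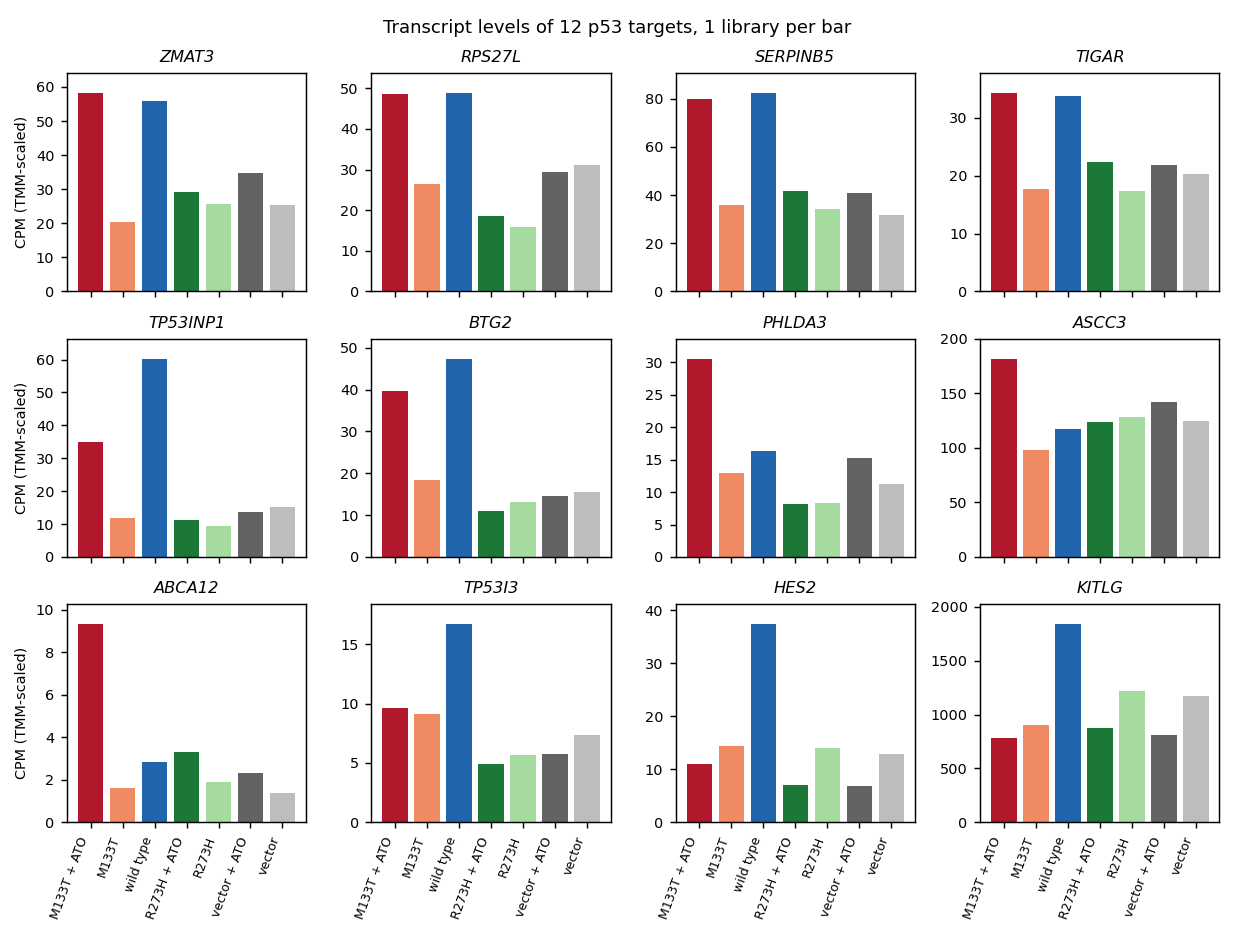
TMM-scaled CPM of 12 members (1 panel each, axes from 0), with 1 bar per library and no replicates. The top row shows members level between p53-M133T cells with ATO and wild-type p53 cells; PHLDA3, ASCC3 and ABCA12 are highest in p53-M133T cells with ATO (30.6, 182 and 9.32 CPM), and TP53INP1, BTG2, TP53I3, HES2 and KITLG are highest in wild-type p53 cells.

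A second set stood higher in p53-M133T cells with ATO than in wild-type p53 cells. ABCA12, a lipid transporter known from the skin barrier (ENSG00000144452, chromosome 2, 214931542 to 215138428, minus strand), stood at 9.32 CPM in p53-M133T cells with ATO, 1.60 in p53-M133T cells, 2.86 in wild-type p53 cells, 3.32 and 1.91 in p53-R273H cells with and without ATO, and 2.30 and 1.36 in vector cells with and without ATO. The ratio to wild type was 3.25 (2.53 to 4.24), from 353 against 74 counts. PHLDA3, a PH-domain protein that restrains AKT (ENSG00000174307, chromosome 1, 201464383 to 201469237, minus strand), stood in the same order at 30.6, 12.9, 16.4, 8.12, 8.33, 15.3 and 11.2 CPM, a ratio of 1.87 (1.67 to 2.10). In both genes the p53-M133T library with ATO stands alone above the other 6.

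ASCC3, a helicase of the ASC-1 complex that acts on alkylated DNA and stalled ribosomes (ENSG00000112249, chromosome 6, 100508194 to 100881372, minus strand), stood at 182, 97.8, 117, 124, 128, 142 and 125 CPM in the same order, a ratio to wild type of 1.55 (1.49 to 1.62). The wild-type p53 library was not above the vector library for this gene, and p53-M133T cells without ATO were the lowest. AEN, a nuclease linked to apoptosis (ENSG00000181026, chromosome 15, 88621296 to 88632282, plus strand), stood at 85.1, 72.4, 61.0, 57.2, 58.3, 70.9 and 63.9 CPM, a ratio of 1.39 (1.31 to 1.48). TRIAP1, a small mitochondrial protein in lipid transfer that restrains apoptosis (ENSG00000170855, chromosome 12, 120443961 to 120446412, minus strand), stood at 49.7, 36.5, 37.0, 31.7, 28.2, 35.0 and 36.3 CPM, a ratio of 1.34 (1.24 to 1.45). Like ASCC3, AEN and TRIAP1 had their highest value in p53-M133T cells with ATO and were at about the vector level in wild-type p53 cells, with ratios of wild type to vector of 0.956 and 1.02.

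SUSD6, a sushi-domain membrane protein (ENSG00000100647, chromosome 14, 69611596 to 69715142, plus strand), stood at 20.3, 9.66, 16.3, 11.2, 10.2, 11.4 and 8.80 CPM, a ratio to wild type of 1.25 (1.11 to 1.41). PLK3, a stress-responsive polo-like kinase (ENSG00000173846, chromosome 1, 44800225 to 44805990, plus strand), stood at 40.1, 33.5, 35.4, 24.1, 25.3, 26.6 and 30.4 CPM, a ratio of 1.13 (1.04 to 1.23). Both were highest in p53-M133T cells with ATO and next highest in wild-type p53 cells.

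For another pair the wild-type library was the lowest of the 7. EPHA2, a receptor tyrosine kinase for ephrins (ENSG00000142627, chromosome 1, 16124337 to 16156087, minus strand), stood at 404 CPM in p53-M133T cells with ATO, 269 in p53-M133T cells, 177 in wild-type p53 cells, 347 and 249 in p53-R273H cells with and without ATO, and 365 and 277 in vector cells with and without ATO, a ratio to wild type of 2.29 (2.22 to 2.37). PTP4A1, the phosphatase PRL-1 (ENSG00000112245, chromosome 6, 63521746 to 63583377, plus strand), stood at 722, 724, 361, 620, 707, 659 and 758 CPM, a ratio of 2.0 (1.95 to 2.05), just short of 2-fold after the pseudocount. The ratio of p53-M133T cells with ATO to vector cells with ATO was 1.11 (1.08 to 1.13) for EPHA2 and 1.1 (1.08 to 1.11) for PTP4A1.

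Another set stood lower in p53-M133T cells with ATO than in wild-type p53 cells although it was above the vector library with ATO. TP53INP1, which promotes autophagy and cell death under stress (ENSG00000164938, chromosome 8, 94925972 to 94949411, minus strand), stood at 35.0 CPM in p53-M133T cells with ATO, 11.9 in p53-M133T cells, 60.3 in wild-type p53 cells, 11.1 and 9.47 in p53-R273H cells with and without ATO, and 13.8 and 15.2 in vector cells with and without ATO. Its ratio to wild type was 0.58 (0.539 to 0.625). BTG2, an antiproliferative factor that recruits the CCR4-NOT deadenylase (ENSG00000159388, chromosome 1, 203305491 to 203309602, plus strand), stood at 39.6, 18.4, 47.4, 11.0, 13.2, 14.5 and 15.4 CPM in the same order, a ratio of 0.834 (0.773 to 0.901). In both, p53-M133T cells with ATO ranked second of the 7 libraries, well above the libraries without wild-type p53.

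TP53I3, the quinone oxidoreductase PIG3 (ENSG00000115129, chromosome 2, 24077433 to 24085861, minus strand), stood at 9.64, 9.10, 16.7, 4.94, 5.69, 5.77 and 7.39 CPM, a ratio to wild type of 0.578 (0.501 to 0.666). Here p53-M133T cells stood at nearly the same level with and without ATO, both below wild-type p53 cells. FDXR, the mitochondrial reductase that feeds electrons to ferredoxin (ENSG00000161513, chromosome 17, 74862497 to 74873031, minus strand), stood at 39.9, 42.3, 49.8, 25.1, 36.3, 24.7 and 43.3 CPM, a ratio of 0.802 (0.744 to 0.864). PLK2, a polo-like kinase (ENSG00000145632, chromosome 5, 58453982 to 58460260, minus strand), stood at 96.1, 112, 159, 58.5, 97.5, 81.8 and 125 CPM, a ratio of 0.602 (0.576 to 0.630). FDXR and PLK2 were lower with ATO in the vector and p53-R273H lines. In the p53-M133T line PLK2 fell less, and the counting interval of FDXR for ATO over no ATO included 1.

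The 3 members at least 2-fold lower than in wild-type p53 cells were HES2, KITLG and ORAI3. HES2, a basic helix-loop-helix repressor of the Hairy family (ENSG00000069812, chromosome 1, 6412418 to 6424670, minus strand), stood at 11.1, 14.4, 37.4, 7.02, 14, 6.95 and 12.8 CPM, a ratio of 0.298 (0.265 to 0.334). KITLG, stem cell factor, the ligand of the KIT receptor (ENSG00000049130, chromosome 12, 88492793 to 88580851, minus strand), stood at 784, 905, 1840, 880, 1220, 812 and 1170 CPM, a ratio of 0.426 (0.420 to 0.432). ORAI3, a calcium channel subunit (ENSG00000175938, chromosome 16, 30949066 to 30956461, plus strand), stood at 4.30, 4.92, 9.87, 3.32, 4.69, 2.16 and 5.09 CPM, a ratio of 0.436 (0.356 to 0.533). In all 3 the wild-type p53 library was the highest, and each line with an ATO library had less with ATO than without. For ORAI3 in p53-M133T cells the ratio of ATO over no ATO was 0.875 (0.706 to 1.08), an interval that included 1.

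Of the 9 members at least 1.5-fold lower than in wild-type p53 cells, 6 (PLK2, HES2, KITLG, ORAI3, RALGDS and ARHGEF3) were also lower with ATO in vector and p53-R273H cells by the test below, SERTAD1 was higher, and TP53INP1 and TP53I3 were not called. Of the 6 at least 1.5-fold higher, ABCA12, BLOC1S2 and EPHA2 were higher with ATO in those lines, PTP4A1 was lower, and PHLDA3 and ASCC3 were not called. Over all genes tested, 26.1% were higher and 22.1% lower in that test. The shares among all genes past 1.5-fold against wild type were not counted. The wild-type library had no ATO, so the p53 form and ATO itself cannot be told apart in the ratios to it. SERTAD1, a regulator of CDK4, had a ratio to wild type of 0.642 (0.585 to 0.704), RALGDS, an exchange factor for Ral, 0.606 (0.565 to 0.649), and ARHGEF3, a guanine nucleotide exchange factor, 0.55 (0.508 to 0.596). BLOC1S2, a subunit of a complex for lysosome-related organelles, had a ratio of 1.52 (1.42 to 1.63). Among the 54, the members not named so far had ratios to wild type between 0.681 (EPS8L2, an actin regulator) and 1.48 (NINJ1, which acts in plasma membrane rupture).

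Grouped by role, these other members lay to both sides of the wild-type level. Among enzymes of metabolism, the ratio of p53-M133T cells with ATO to wild-type p53 cells was 0.764 for CMBL, 0.841 for the carboxylesterase CES2 and 1.01 for the NAD synthetase NADSYN1. Among genes of autophagy, mRNA decay and apoptosis it was 0.78 for the lysosomal protein DRAM1, 0.82 for the decapping factor DCP1B, 0.819 for APAF1, 0.796 for TNFAIP8, an inhibitor of apoptosis, and 0.847 for the signalling adaptor TRAF4. All of these but NADSYN1 had counting intervals below 1.

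The ubiquitin ligase genes FBXW7, at 1.11, and FBXO22, at 1.2, had intervals above 1, and TRIM32, at 1.03, had one that included 1. Among growth factors, receptors and small GTPases the ratio was 1.07 for TGFA, 1.22 for the placental growth factor PGF, 1.03 for the semaphorin receptor PLXNB2 and 0.886 for RAP2B. TLR3 stood at 0.702 and FAM210B, a mitochondrial protein, at 0.791. The ratio was 1.38 for GREB1, 1.23 for TM7SF3, 1.16 for SYTL1, a synaptotagmin-like protein of vesicle traffic, 1.09 for CYFIP2, 1.1 for ANKRA2, 0.997 for LIMK2, 0.978 for the phospholipid transfer protein PLTP and 0.944 for SAC3D1.

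The comparison of p53-M133T with vector cells, both with ATO, holds the drug equal and lies within the 6 libraries of 1 prefix. Over all genes its ratio had a Spearman correlation of 0.0278 with exon length and 0.321 with GC content. The part of this trend in the members' ratios was not tested. Here 48 of 54 members lay above 0, with a median log2 ratio of 0.246, beside 50.4% of all genes and a median of 0.001. At least 1.5-fold higher were 14 members, beside 0.719% of all genes, and at least 2-fold higher were 3, beside 0.19%. With the pseudocount no member was at least 2-fold lower (0.0395% of all genes), although scarce PLCL2 had a plain ratio of 0.324 (0.188 to 0.538). The 3 higher members were ABCA12 at 4.06-fold (3.20 to 5.20), BTG2 at 2.74-fold (2.48 to 3.03) and TP53INP1 at 2.54-fold (2.29 to 2.81). Among members below the wild-type level, TP53I3 stood above vector cells with ATO at 1.67-fold (1.41 to 1.99), FDXR at 1.62-fold (1.49 to 1.76), HES2 at 1.60-fold (1.37 to 1.88) and ORAI3 at 1.99-fold (1.51 to 2.63). KITLG also stood below vector cells with ATO, at 0.965 (0.95 to 0.981), and LIMK2, a kinase of the actin regulator cofilin, was level with them, at 1.0 (0.917 to 1.1).

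**Figure D3:**
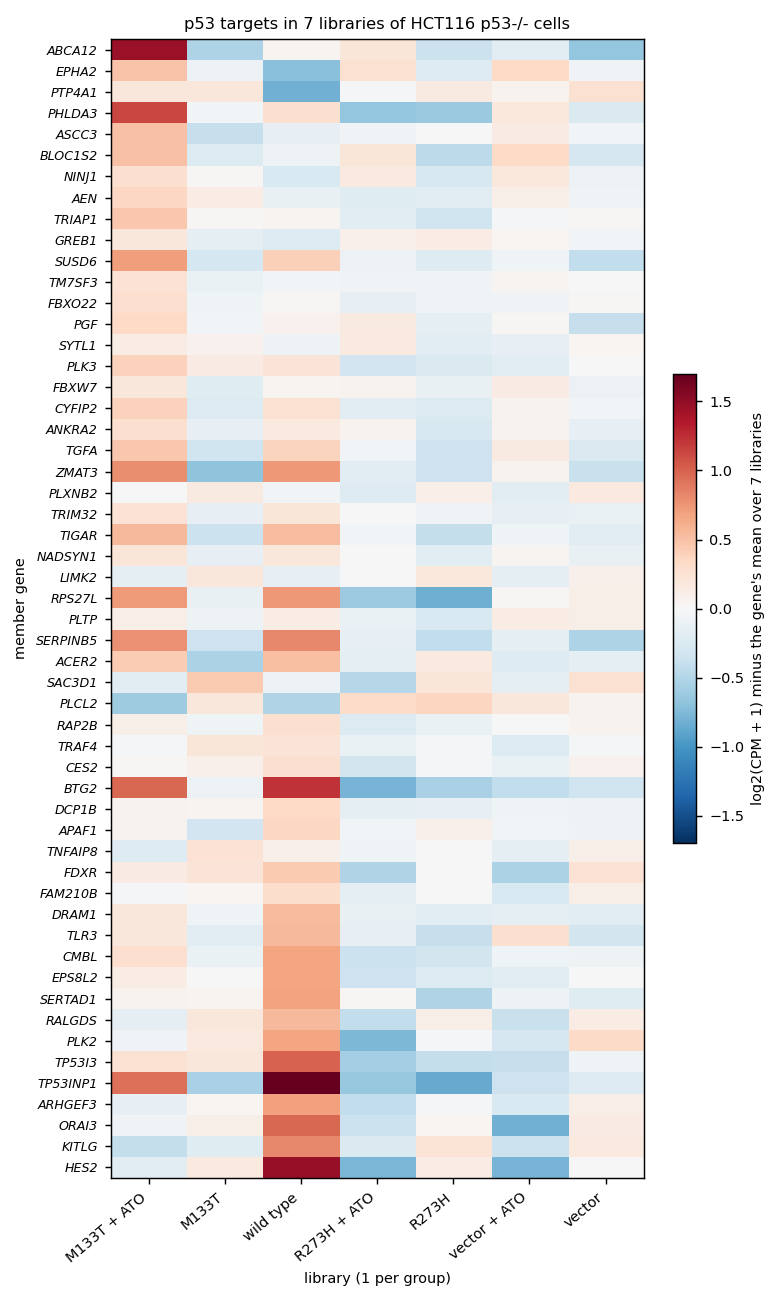
Heat map of the 54 members (rows, ordered from the highest to the lowest ratio of p53-M133T cells with ATO to wild-type p53 cells) in the 7 libraries (columns, 1 per group); colour is log2(CPM + 1) minus the gene's mean over the 7 libraries. The red cells lie mostly in the columns of p53-M133T cells with ATO and of wild-type p53 cells, where 22 and 25 of the 54 members have their highest value. The share of all genes with their highest value in these libraries was not counted.

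Within the p53-M133T line, ATO went with higher levels of most members. Of 54 members, 38 had a log2 ratio above 0 for ATO against no ATO, with a median of 0.306, beside 50.1% and 0 for all genes. At least 2-fold higher were 7 members, beside 1.35% of all genes, and none was counted as at least 2-fold lower (0.971%). The 7 were ABCA12 at 5.84-fold (4.45 to 7.76), TP53INP1 at 2.95-fold (2.65 to 3.28), ZMAT3 at 2.86-fold (2.64 to 3.11), PHLDA3 at 2.38-fold (2.14 to 2.65), SERPINB5 at 2.21-fold (2.07 to 2.36), BTG2 at 2.15-fold (1.97 to 2.35) and SUSD6 at 2.10-fold (1.86 to 2.39). Scarce ACER2, at 2.65-fold (1.94 to 3.67), and PLCL2, at 0.322 (0.187 to 0.531), passed 2-fold by their plain ratios but not with the pseudocount. In vector cells 27 of 54 members lay above 0 with ATO against no ATO, and no member was counted as at least 2-fold higher (0.671% of all genes) or lower (0.987%), although ORAI3 had a plain ratio of 0.425 (0.323 to 0.555). In p53-R273H cells 24 lay above 0, and again none was at least 2-fold higher (0.592%) or lower (0.782%).

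A test of the difference used the 6 libraries of the 3 lines in 1 fit, with the cell line as a block. It compared the ATO effect in p53-M133T cells with the mean ATO effect in vector and p53-R273H cells, with the quasi-likelihood test of edgeR and p-values adjusted by Benjamini-Hochberg over 13974 genes at a threshold of 0.05. The lines stand in for replicates, with 1 residual degree of freedom and 402.4 prior degrees of freedom, so that the spread comes almost wholly from all genes together and no gene's own spread between cultures was measured. Of the 55 members tested, 23 were higher, beside 5.4% of all genes, and 1 was lower, beside 2.12%. The median difference was 0.29 on the log2 scale for the members and -0.001 for all genes. Without the block 5 members were called higher, and by the DESeq2 Wald test 5 as well, with 27 of the 55 given no adjusted p by DESeq2. Over all genes, 754 were called higher with the block, 135 without it and 154 by DESeq2. ZMAT3, ASCC3 and SERPINB5 were called by all 3 of these fits, BTG2 and TP53INP1 with and without the block, and CYFIP2 with the block and by DESeq2, which also called KITLG, not among the 23.

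The largest differences among the members called higher were those of ABCA12, at a log2 difference of 1.76 ± 0.35 (SE; adjusted p = 6.4e-05), and ACER2, at 1.68 ± 0.40 (adjusted p = 0.00136), which both stayed below 10 CPM in every library. TP53INP1 followed at 1.53 ± 0.16 (adjusted p = 2.69e-16), BTG2 at 1.27 ± 0.15 (adjusted p = 2.5e-13), ZMAT3 at 1.2 ± 0.13 (adjusted p = 8.43e-17) and PHLDA3 at 1.02 ± 0.17 (adjusted p = 4.6e-07). RPS27L, ASCC3, SUSD6, SERPINB5 and TIGAR had differences between 0.71 and 0.83. Of the 54 members with 1 CPM in a library, 44 (81.5%) had a larger ATO ratio in p53-M133T cells than in each of the other lines, as did 38.2% of all 12661 genes. The 23 members were called on these same ratios. For ZMAT3 the ratios of ATO over no ATO were 2.86 (2.64 to 3.11) in p53-M133T cells, 1.14 (1.04 to 1.25) in p53-R273H cells and 1.36 (1.25 to 1.48) in vector cells.

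Smaller differences were called for members with other roles. In mitochondria and cell death, FDXR had a log2 difference of 0.59, APAF1, the core of the apoptosome, 0.45, and TRIAP1 0.39. Among signalling and ubiquitin genes, TGFA, a ligand of the EGF receptor, had 0.46, PLK2 0.46, PLK3 0.39, FBXO22, an F-box protein, 0.43 and TRIM32, a ubiquitin ligase, 0.36. CYFIP2, a subunit of the actin-regulating WAVE complex, had 0.55, HES2 0.57, the hydrolase CMBL 0.41 and the membrane protein TM7SF3 0.34. With the length and GC correction HES2, APAF1 and FBXO22 were no longer called, with FBXO22 at 0.25. CYFIP2 was still called, at 0.35, and so was ASCC3, at 0.62. PLCL2, a phospholipase C-like protein without catalytic activity (ENSG00000154822, chromosome 3, 16802651 to 17090594, plus strand), was the member called lower, at -1.69 ± 0.55 (adjusted p = 0.0354). Its level was 0.555 CPM in p53-M133T cells with ATO (21 counts), 1.72 in p53-M133T cells, 0.658 in wild-type p53 cells (17 counts), 1.94 and 2.05 in p53-R273H cells with and without ATO, and 1.71 and 1.47 in vector cells with and without ATO. Its lowest libraries were those of p53-M133T with ATO and of wild-type p53, which is the reverse of the pattern of ZMAT3. Neither AEN (log2 difference 0.17, adjusted p = 0.372) nor TP53I3 (0.37, adjusted p = 0.382) nor KITLG (0.29, adjusted p = 0.0538) was called. KITLG was called higher with DESeq2 size factors, with no filter and with a mean of at least 10 CPM. It was also called higher with the length and GC correction and by the DESeq2 Wald test, but not without the block.

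The same fit gave the ATO effect common to vector and p53-R273H cells, where no wild-type or M133T p53 is present. Of the 55 members tested, 14 were higher with ATO (26.1% of all genes) and 15 were lower (22.1%), shares near the background. BLOC1S2 was higher at a log2 effect of 0.65 (adjusted p = 7.88e-20) and EPHA2 at 0.44 (adjusted p = 6.19e-13). HES2 was lower at -0.94 (adjusted p = 8.65e-14), PLK2 at -0.67 (adjusted p = 4.76e-25), FDXR at -0.67 (adjusted p = 1.33e-17) and KITLG at -0.50 (adjusted p = 8.32e-15). ORAI3 was lower at -0.85 (adjusted p = 1.85e-05), and its value was -0.49 without the vector pair and -1.21 without the R273H pair. SERTAD1 was higher at 0.33 (adjusted p = 0.000432), with 0.55 without the vector pair and 0.12 without the R273H pair. PLK2, FDXR and HES2 were lower in this test and higher in the test of the p53-M133T line. In that line the ratios of ATO over no ATO were 0.861 (0.824 to 0.900) for PLK2, 0.944 (0.880 to 1.01) for FDXR and 0.775 (0.682 to 0.881) for HES2. So ATO did not go with higher levels of these 3 in that line. PLK2 and HES2 had a smaller decrease there than in the other lines, and the interval of FDXR included 1. ZMAT3, TIGAR, ABCA12, SERPINB5 and TGFA were higher in both tests. The effect on TIGAR in vector and p53-R273H cells was 0.24, with 0.37 without the vector pair and 0.11 without the R273H pair, and it was not called without the block, by DESeq2 or with the length and GC correction. That on ZMAT3 was 0.32, with 0.19 without the vector pair and 0.2 with the length and GC correction. Of the 23 members, 15 were not called in vector and p53-R273H cells, where 26.1% of all genes were higher and 22.1% lower. Among these 15, SUSD6 and PHLDA3 were called higher there with the length and GC correction.

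**Figure D4:**
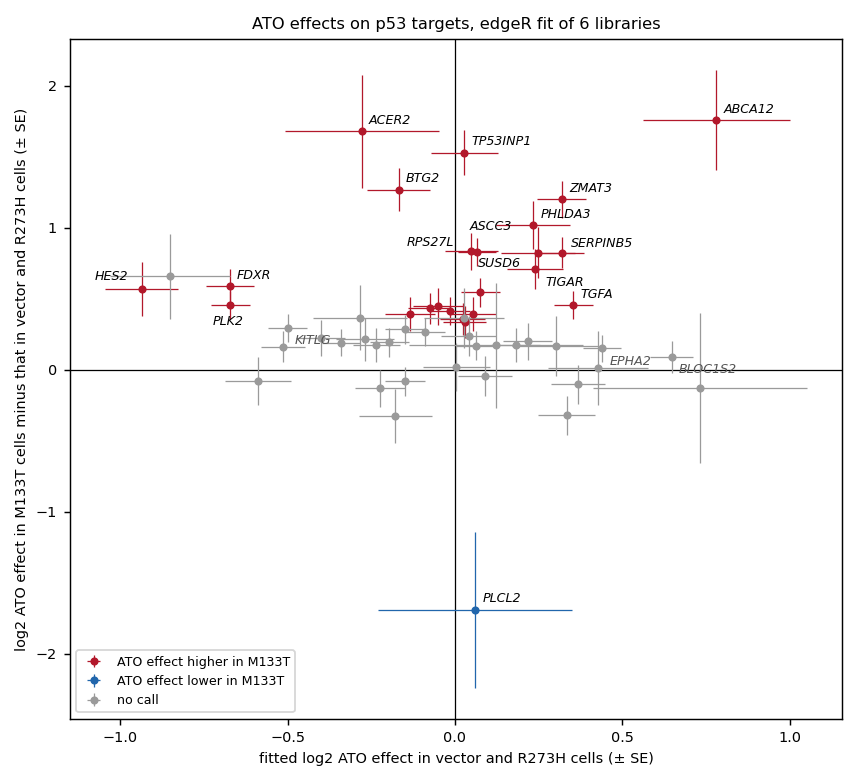
For 54 of the 55 members tested (TRIM22, with a count of 0 in a library, is left out), the fitted log2 ATO effect in vector and p53-R273H cells (x axis) against the log2 ATO effect in p53-M133T cells minus that effect (y axis), with standard errors; red marks the 23 members called higher, blue the 1 called lower. Most red points lie near 0 on the x axis, while HES2, FDXR and PLK2 lie to its left and ABCA12 to its right.

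Wild-type p53 set against vector, both without ATO, shows which members stood higher with wild-type p53. Of 54 members, 41 had a log2 ratio above 0, with a median of 0.316, beside 51.0% and 0.011 for all genes. At least 2-fold higher were 6 members, beside 2.87% of all genes, and 1 was at least 2-fold lower, beside 1.96%. The 6 were TP53INP1 at 3.96-fold (3.59 to 4.37), BTG2 at 3.09-fold (2.79 to 3.42), HES2 at 2.93-fold (2.61 to 3.28), SERPINB5 at 2.58-fold (2.40 to 2.78), TP53I3 at 2.26-fold (1.93 to 2.64) and ZMAT3 at 2.2-fold (2.02 to 2.39). PTP4A1 was the lower one, at 0.476 (0.465 to 0.487). Scarce ABCA12, at 2.11-fold (1.45 to 3.10), and PLCL2, at 0.447 (0.242 to 0.786), passed 2-fold by their plain ratios but not with the pseudocount. The members TLR3, a receptor of double-stranded RNA, and TRIM22, a ubiquitin ligase, are also known as interferon-inducible, and TLR3 had a plain ratio of 2.56 (1.70 to 3.90) in this comparison, also not counted.

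The ratio of ATO over no ATO in p53-M133T cells and the ratio of wild-type p53 over vector share no library. At least 1.5-fold higher were 15 members in the first (6.81% of all genes) and 19 in the second (8.87%), and 10 members were so in both, beside 0.932% of all genes. These 10 were ZMAT3, TP53INP1, TIGAR, BTG2, RPS27L, ABCA12, SERPINB5, SUSD6, TGFA and ACER2, which make 66.7% of the 15 and 52.6% of the 19. PHLDA3, ASCC3, BLOC1S2, CYFIP2 and EPHA2 were at least 1.5-fold higher in p53-M133T cells with ATO alone. TP53I3, CMBL, DRAM1, a lysosomal membrane protein of autophagy, EPS8L2, HES2, KITLG, ORAI3, SERTAD1 and TLR3 were so in wild-type p53 cells alone, although the plain ratio of TLR3 with ATO in p53-M133T cells was 1.52 (1.05 to 2.22). Across the 54 members the Spearman correlation between the log2 ratios was 0.362, beside 0.071 across all 12661 genes, and genes are not independent replicates. Over all genes the ratio in p53-M133T cells had a Spearman correlation of 0.317 with exon length and -0.366 with GC content, against 0.0668 and -0.0308 for the ratio of wild type to vector.

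**Figure D5:**
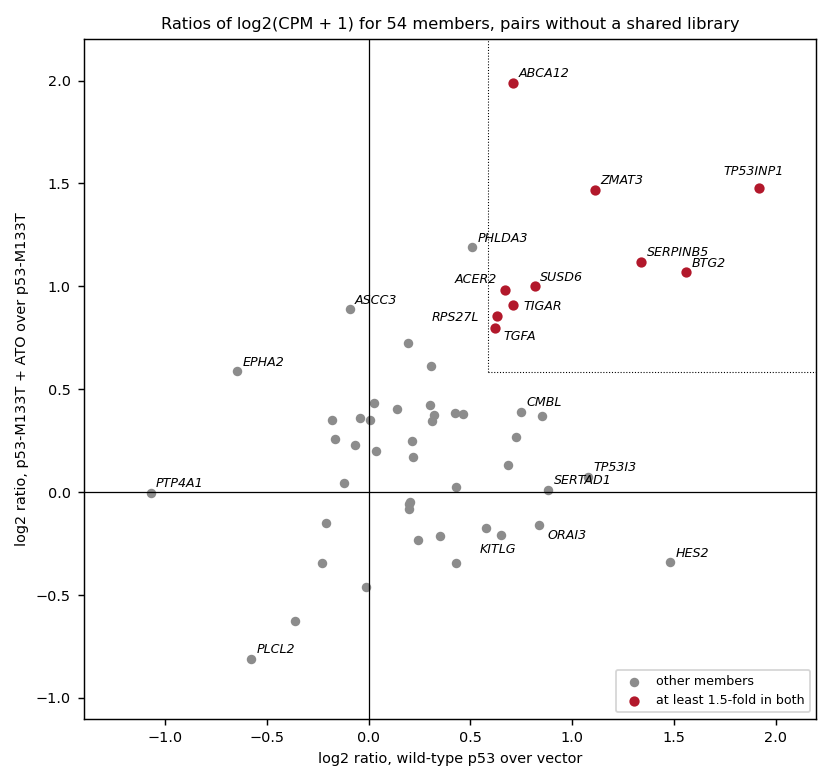
Log2 ratios of CPM + 1 for the 54 members, wild-type p53 over vector (x axis) and p53-M133T with ATO over p53-M133T (y axis), 1 library against 1 in each; the dotted corner marks 1.5-fold in both. The 10 red points lie in that corner, HES2 lies far right but below 0 on the y axis, and ASCC3 and EPHA2 lie left of 0 on the x axis and above 0 on the y axis.

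Without ATO, no member was past 2-fold between a mutant and the vector line. For p53-M133T against vector, 26 of 54 members lay above 0 (48.1%), beside 53.1% of all genes, the median log2 ratio was -0.007, beside 0.014, and none was at least 2-fold higher (0.0948% of all genes) or lower (0.111%). ZMAT3 stood at 0.799 of the vector level (0.726 to 0.880), TP53INP1 at 0.779 (0.687 to 0.884) and ASCC3 at 0.782 (0.749 to 0.817). Over all genes the ratio of p53-M133T to vector had a Spearman correlation of -0.431 with exon length and 0.391 with GC content. The part of these trends in the ratios of single members was not tested. For p53-R273H against vector, 16 of 54 lay above 0 (29.6%), beside 53.7% of all genes, the median was -0.098, beside 0.012, and none was at least 2-fold higher (0.0711%) or lower (0.103%). RPS27L, at 0.508 (0.458 to 0.564), and TP53INP1, at 0.622 (0.541 to 0.715), were the lowest there. The ratio of p53-R273H to vector had Spearman correlations over all genes of 0.299 with exon length and -0.183 with GC content. The part of these trends in the members was also not tested. Over all 7 libraries the p53-R273H library with ATO was the lowest for 16 members and that without ATO for 14. The share of all genes that were lowest in these libraries was not counted.

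The genes outside the members whose levels followed the members' mean most closely over the 7 libraries were ACTA2, with a Pearson correlation of 0.9765, SESN1 with 0.9708 and C1orf116 with 0.9455, among 715 genes that varied enough to be compared. The other p53 targets, a list of 21 genes that includes CDKN1A and MDM2, stood higher relative to wild type than the members did. Their median log2 ratio of p53-M133T cells with ATO to wild-type p53 cells was 0.58, beside 0.026 for all genes. Of the 21, 19 lay above 0, beside 52.6% of all genes. The ratio to wild type was 1.82 (1.76 to 1.88) for CDKN1A and 2.26 (2.2 to 2.33) for MDM2. In the test of the p53-M133T line 12 of these 21 were higher (5.4% of all genes) and 0 lower (2.12%). In vector and p53-R273H cells 12 were higher with ATO (26.1% of all genes) and 3 lower (22.1%). Whether this list and the members differ was not tested.

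Per kilobase of exon in vector cells, the members ranged from 0.144 CPM for ABCA12 to 189 CPM for KITLG, with a median of 5.45 over the 54. SPATA18, which acts in mitochondrial quality control, had 5 counts in p53-M133T cells with ATO, 5 in wild-type p53 cells and at most 4 in any other library. TRIM22 had 16 counts in p53-M133T cells with ATO and 20 in wild-type p53 cells, against 8 or fewer elsewhere. EDA2R, a receptor of the TNF receptor family, had at most 1 count in any library, so a difference was not detectable at this depth. Exons of 24 of the 57 members overlap those of another gene, among them TIGAR, PLK3, TP53I3, PHLDA3, ABCA12, KITLG, ORAI3, PLCL2 and PTP4A1, and RPS27L has the close paralogue RPS27. The values of these genes are uncertain, because the sources used here do not give the counting rule or whether it used strand.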

How the data were processed

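The values are raw counts of reads per gene, deposited by the authors as whole numbers in a single table for 7 libraries, 1 per group. FastQC, cutadapt, STAR and hg38 are named in the submitters' processing notes. Which program and annotation gave the counts, and whether strand was used, is not given in the sources used here. All 19699 identifiers were found in GENCODE 29, which gave coordinates, exon lengths, GC content and names for 46 rows whose symbol was date-like or repeated. Counts were scaled to CPM with TMM (edgeR 4.0.16, R 4.3.3). Log2 ratios of CPM with a pseudocount of 1 covered genes that reached 1 CPM in any library, and 2-fold was the size rule. Clopper-Pearson intervals came from scipy 1.17.1, and intervals and floors of 3 counts cover counting error only. Both tests used 1 edgeR quasi-likelihood fit of 6 libraries, after edgeR's filter on low counts, with Benjamini-Hochberg adjustment. DESeq2 1.42.0, other scalings, filters, pseudocounts, an mgcv 1.9.3 correction for length and GC content, and a fit without the block were tried. Libraries of the same cell line form the pairs; their deviations from the treatment means correlated at 0.151 in the p53-M133T line, 0.26 in the p53-R273H line and 0.145 in the vector line.

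The p-values rest on lines in place of replicates. The 1 residual degree of freedom comes from the difference between the ATO effects of vector and p53-R273H cells, which may be technical. The spread used comes almost wholly from all genes together, so no gene's own spread between cultures is measured. The members and lists were chosen with earlier results of these data known. Named with values in every library were the first 13 members of the list, except SPATA18, which is given by counts, those past the size rule in p53-M133T with ATO against wild type or against p53-M133T or in wild type against vector, and those called in the test of the p53-M133T line at 1.5-fold or more. The 3 most similar genes outside the list were taken by Pearson correlation. PTP4A1, BLOC1S2, RALGDS, ARHGEF3 and SERTAD1 were named for their ratios to wild type. The lists of 7 stromal, endothelial and erythroid markers summed to between 19.0 and 36.0 CPM per library. The planned comparison of wild-type p53 with untreated p53-M133T cells was not used. One planned check of the labels is not reported here.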

Additional observations from a re-analysis of the deposited data

Results flagged for a closer look

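The ATO effect differed between the p53-M133T line and the mean of the vector and p53-R273H lines, by edgeR's quasi-likelihood test, for 24 members. The log2 differences were 1.76 for ABCA12, 1.68 for ACER2, 1.53 for TP53INP1, 1.27 for BTG2, 1.2 for ZMAT3, 1.02 for PHLDA3, 0.834 for RPS27L, 0.831 for ASCC3, 0.825 for SUSD6, 0.824 for SERPINB5, 0.708 for TIGAR and 0.589 for FDXR. They were 0.569 for HES2, 0.545 for CYFIP2, 0.455 for PLK2, 0.455 for TGFA, 0.447 for APAF1, 0.432 for FBXO22, 0.412 for CMBL, 0.390 for PLK3, 0.390 for TRIAP1, 0.358 for TRIM32, 0.337 for TM7SF3 and -1.69 for PLCL2. PLCL2, with 21 counts in p53-M133T cells with ATO, was not called without the block.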

How the results depend on the processing

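Under every pseudocount, scaling, filter, exon and length or GC alternative run, the members' median log2 ratio kept its direction in the comparisons of library pairs except 2 that lie near 0. It was 0.001 with ATO in vector cells and as low as -0.077 with CPM of library totals, and -0.036 with ATO in p53-R273H cells and as high as 0.058 without members that share exons. The counts of members past 2-fold moved more. For p53-M133T with ATO against wild type, 2 higher became 1 with a pseudocount of 5 CPM, 1 with a mean of at least 10 CPM, 1 without members that share exons and 6 with a rule of 1.5-fold, and 3 lower became 1 without members that share exons and 9 at 1.5-fold. For p53-M133T with ATO against p53-M133T, 7 higher became 4 with a pseudocount of 5 CPM and 15 at 1.5-fold, and 0 lower became 1 with a pseudocount of 0.5 CPM and 2 at 1.5-fold. For wild type against vector, the counts at 1.5-fold were 19 higher and 2 lower, and without members that share exons 0 were lower. At 1.5-fold, 1 member was higher and 4 lower with ATO in vector cells, 1 higher and 3 lower with ATO in p53-R273H cells, 2 lower in p53-R273H against vector, and 14 higher and 1 lower in p53-M133T against vector, both with ATO. With a pseudocount of 0.5 CPM, 1 was lower in vector cells with ATO and 1 in p53-M133T against vector with ATO, and with CPM of library totals 1 was lower in vector cells with ATO.

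In the test of the p53-M133T line, 23 higher became 5 with no replicate block and 5 by DESeq2, and 1 lower became 0 with a mean of at least 10 CPM, 0 with no replicate block and 0 by DESeq2. Over all genes, 754 higher became 135 with no replicate block and 154 by DESeq2. The 296 lower over all genes became 347 with a mean of at least 10 CPM, 7 with no replicate block and 3 by DESeq2. With the length and GC correction, 386 were higher and 408 lower over all genes, beside 21 members higher and 1 lower. In the test of vector and p53-R273H cells, 14 higher became 9 with no replicate block and 4 by DESeq2, and 15 lower became 9 by DESeq2. Over all genes in that test, 3642 higher became 2867 with no replicate block and 1729 by DESeq2, and 3092 lower became 1226 by DESeq2. The effect on EPS8L2 there reversed to 0.074 with the length and GC correction. Of the calls on single members, 27 were lost and 26 kept with no replicate block, 27 lost and 17 kept by DESeq2 among those it gave an adjusted p, and 9 lost and 43 kept with the length and GC correction. The causes were not tested. Leaving out the vector pair or the R273H pair gives values with no test, since no residual degrees of freedom remain. Depth limits SPATA18, EDA2R, TRIM22 and PLCL2.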
